A study of Mus musculus with 6 samples.

Results

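The gene set described here comprises 34 genes of endoplasmic reticulum (ER) stress signalling and protein folding in the secretory pathway, and all 34 were measured among the 20239 named genes of the array. They were chosen by name for their part in the pathway, with earlier results of these data known. They fall into 4 arms. The first holds 15 ER chaperones and folding enzymes, and the second 4 genes, those of the stress sensors and the transcription factor gene Xbp1. The other arms are 8 genes of the ATF4-CHOP and amino acid response and 7 genes of ER-associated degradation (ERAD). RNA came from whole sciatic nerves of 25-day-old mice, with 1 array per mouse and 3 mice per group. The mutants had the genotype DhhCre::Sip1 flox/flox, in which a Cre recombinase driven by Dhh (desert hedgehog) sequences deletes Zeb2, the gene also called Sip1, in the Schwann cell lineage. The controls had the genotype Sip1 flox/flox, carrying the same floxed alleles without Cre, so no group carried Cre alone. Which cells of the nerve lost the gene was not measured. Expression values are log2 array values, on which a difference of 1 is a doubling.

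The ER folds proteins that are secreted or built into membranes. When unfolded proteins accumulate, the chaperone Hspa5 (BiP) leaves 3 sensors of the ER membrane, IRE1 (encoded by Ern1), ATF6 and PERK (encoded by Eif2ak3). IRE1 splices the Xbp1 transcript and ATF6 is cut to release a transcription factor, and both then raise chaperones, folding enzymes and ERAD genes, whereas PERK slows translation and favours ATF4, which raises Ddit3 (CHOP) and genes of amino acid supply. Myelinating Schwann cells and nerve fibroblasts both make large amounts of membrane or secreted protein. Splicing, cleavage and phosphorylation are not measured by a gene-level array.

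The factors named above bind short elements in promoters. Matches are shown for some of the members that held one, both genes that rose and genes that did not pass. Not every match is printed. The ER stress response element (ERSE, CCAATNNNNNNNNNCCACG), bound by ATF6 with the factor NF-Y, and the C/EBP-ATF composite site of the ATF4 response (CARE, TGATGNAA) were searched on both strands from 250 bases before to 50 after the RefSeq start (GRCm38.p6). Only bases before the start are printed, 5′ to 3′ on the strand of the gene, with the match in capitals. A match on the opposite strand reads as the reverse complement, as in Calr.

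Hspa5 (chr2:34772010-34772058, plus strand, ERSE): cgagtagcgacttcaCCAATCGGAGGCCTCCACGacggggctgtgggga
Pdia6 (chr12:17266476-17266524, plus strand, ERSE): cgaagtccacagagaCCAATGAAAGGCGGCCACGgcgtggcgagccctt
Hsp90b1 (chr10:86705518-86705671, minus strand, 2 ERSE): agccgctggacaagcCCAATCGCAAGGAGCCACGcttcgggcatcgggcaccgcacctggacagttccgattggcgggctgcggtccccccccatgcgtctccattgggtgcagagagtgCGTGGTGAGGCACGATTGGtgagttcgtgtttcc
Calr (chr8:84847060-84847108, minus strand, ERSE): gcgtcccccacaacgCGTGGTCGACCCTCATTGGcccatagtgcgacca
Canx (chr11:50325785-50325833, minus strand, ERSE): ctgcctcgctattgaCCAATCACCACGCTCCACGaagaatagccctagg
Syvn1 (chr19:6046517-6046565, plus strand, ERSE): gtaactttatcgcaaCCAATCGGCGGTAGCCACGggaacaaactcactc
Herpud1 (chr8:94386362-94386402, plus strand, ERSE-II): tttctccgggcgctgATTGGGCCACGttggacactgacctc
Vldlr (chr19:27216805-27216842, plus strand, CARE): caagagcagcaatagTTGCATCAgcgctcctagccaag
Chac1 (chr2:119351034-119351071, plus strand, CARE): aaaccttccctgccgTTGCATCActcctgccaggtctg

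Zeb2 was lower in every mutant (10.96, 10.66, 11.01 for mice 1 to 3) than in any control (11.67, 11.57, 12.02). The difference was −0.88 (SE 0.15, limma adjusted p = 0.0137), and the adjusted p was 0.0522 without mutant 1. Averaged over 18 genes of skeletal muscle, the log2 level reached 12.15 in mutant 2 and 12.18 in control 2, the muscle-rich nerves, while the other nerves lay between 7.51 and 10.32. The level of Xist alone placed 2 males and 1 female among the mutants and 1 male and 2 females among the controls. Array medians lay between 8.02 and 8.11 in this table.

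In mutant nerves 6 of the 15 chaperones and folding enzymes rose, by 1.28-fold to 1.80-fold, and 1 of the 19 genes of the other arms. Of the 34 members 7 rose and none fell (limma, Benjamini-Hochberg adjusted p under 0.05 over all genes), which is 20.6% of members beside 5.74% of all genes higher and 3.89% lower. Those 7 were Sdf2l1, Pdia3, Hspa5, Pdia6, Dnajb9 and P4hb among the folding genes, and Vldlr in the ATF4 arm. At an unadjusted p under 0.05, 17 members were higher and 0 lower, beside 13.7% of all genes higher and 8.67% lower. The median log2 difference of the members was 0.25, against −0.02 over all genes, and 31 of the 34 differences lay above 0, as did 45.9% of all genes. All 3 mutant values lay above all 3 control values for 18 members (52.9%, beside 16.3% of all genes) and below them for 1 member, Chac1 (beside 11.8% of all genes). When the lowest 50% of genes were left out, 9 of 31 members rose, beside 11.2% of all remaining genes, whose median difference was 0.05. In whole tissue, fewer or more cells of a type and less or more RNA per cell cannot be told apart.

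Many calls were lost when a single mouse was left out, which also leaves fewer mice in its group. The number of all genes called was 1948 with every mouse and 896 to 2021 with single mice left out. Without mutant 1 none of the 34 members passed in limma, beside 2.49% of all genes that passed as higher. At an unadjusted p under 0.05, 10 members were higher in that fit (median difference 0.22). The share of all genes at that unadjusted threshold was not taken for this fit. Without mutant 3 only Sdf2l1 passed, beside 2.48% of all genes higher. Hspa5, Pdia3 and Sesn2 passed without control 1, Pdia6 and Herpud1 without control 2, and Pdia3 without control 3. In these fits 4.67%, 3.67% and 4.44% of all genes were higher. Without mutant 2, 8 members passed, beside 6.9% of all genes higher. A block for the replicate number left 4 members past the threshold: Hspa5, Pdia3, Sdf2l1 and Hsp90b1. With the block 5.95% of all genes were higher. The median difference over members was 0.30 between mutant 1 and control 1, 0.15 between the muscle-rich pair numbered 2, and 0.34 between mutant 3 and control 3. With the muscle score as a covariate Hspa5, Pdia3, Pdia6 and Sdf2l1 passed, and with sex as a covariate Hspa5, Sdf2l1 and Vldlr. The shares of all genes higher were 5.17% with the muscle score and 4.46% with sex.

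**Figure D1:**
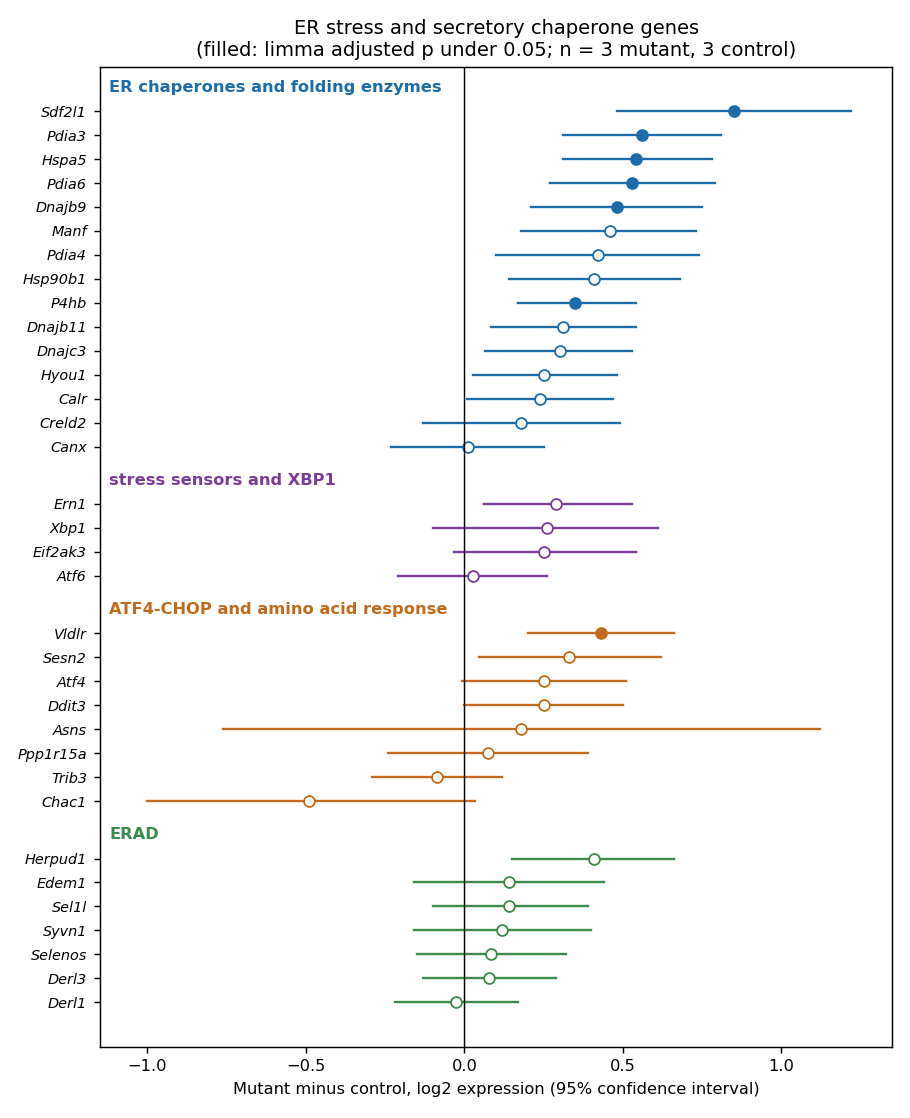
Difference in log2 expression, mutant minus control, for the 34 genes by arm, with 95% confidence intervals (3 mice per group). Filled points had a limma adjusted p under 0.05; 6 of the 15 folding genes are filled, from P4hb at 0.35 to Sdf2l1 at 0.85, and 1 of the other 19 (Vldlr).

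Hspa5, the main chaperone of the ER lumen and the one that holds the sensors inactive, stood at 12.08, 11.96 and 12.27 in mutants 1, 2 and 3, and controls 1, 2 and 3 gave 11.62, 11.54 and 11.51. The mutant values lay above every control value. The difference was 0.54 (SE 0.10), a 1.46-fold rise with a 95% confidence interval of 1.24 to 1.72, at a limma adjusted p of 0.0183. Leaving out single mice moved the difference between 0.46 and 0.61 and the adjusted p between 0.0191 and 0.0803.

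Sdf2l1, a partner that keeps BiP bound to its clients, had the largest difference of the members. It stood at 9.95, 9.72 and 10.34 in the mutants, against 9.12, 9.20 and 9.13 in the controls. The control values were close together, and the lowest mutant value was above all of them. The rise was 0.85 (SE 0.16), or 1.80-fold (95% confidence interval 1.39 to 2.33, limma adjusted p = 0.0178), with adjusted p between 0.0105 and 0.069 when single mice were left out. Dnajb9, a J-domain co-chaperone of BiP that also restrains IRE1, stood at 10.11, 9.92 and 10.30 against 9.56, 9.71 and 9.63 and rose by 0.48 (SE 0.11, limma adjusted p = 0.0464). Its call was the closest to the threshold among the members and held without 1 mouse only, mutant 2, with adjusted p between 0.0262 and 0.164 when single mice were left out.

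Among the protein disulfide isomerases, which form and rearrange disulfide bonds, 3 of 4 rose. Pdia3, which works on glycoproteins together with the lectins calnexin and calreticulin, stood at 11.88, 11.70 and 11.85 in the mutants against 11.31, 11.09 and 11.35 in the controls. It rose by 0.56 (SE 0.10, 1.47-fold, limma adjusted p = 0.0183), and the differences within the pairs numbered 1 to 3 were 0.58, 0.61 and 0.49. Pdia6, which also acts on IRE1 and PERK, stood at 10.28, 9.98 and 10.22 against 9.57, 9.75 and 9.57. The values did not overlap, but mutant 2 and control 2 lay closest, 0.24 apart, and the rise was 0.53 (SE 0.11, limma adjusted p = 0.0266). P4hb, which is also the beta subunit of the collagen prolyl 4-hydroxylase, stood at 11.90, 11.82 and 11.92 against 11.55, 11.57 and 11.48. Its rise, 0.35 (SE 0.078, limma adjusted p = 0.0353), was the smallest of the 7, and its SD was 0.051 in the mutants and 0.049 in the controls. Pdia4 did not pass, at 11.70, 11.31 and 11.72 against 11.11, 11.06 and 11.30 (difference 0.42, 95% confidence interval 0.10 to 0.74, limma adjusted p = 0.118), and mutant 2 nearly met control 3. With single mice left out, adjusted p ran from 0.0257 to 0.0954 for Pdia3, from 0.0184 to 0.122 for Pdia6, from 0.0481 to 0.162 for P4hb and from 0.0298 to 0.371 for Pdia4. In the fit with that block the adjusted p was 0.0524 for Pdia6, 0.086 for P4hb, 0.065 for Dnajb9 and 0.0677 for Vldlr, so these calls were lost. Median centring of the arrays left 5 members past the threshold and ended the calls of P4hb and Dnajb9.

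**Figure D2:**
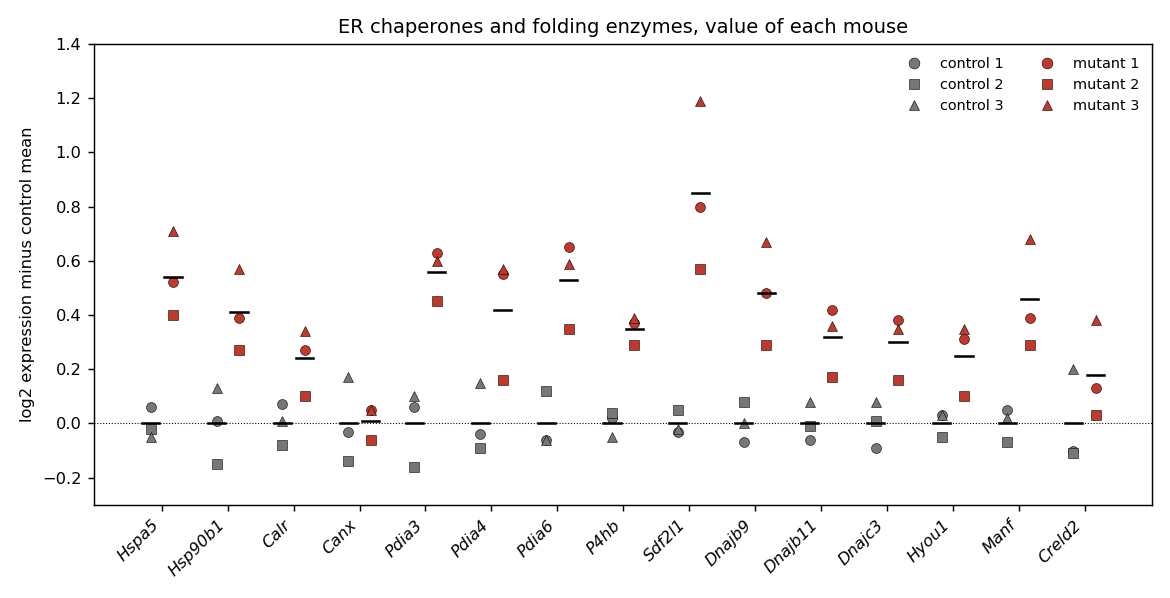
Log2 expression of the 15 chaperones and folding enzymes in each mouse, with the control mean of each gene set to 0; grey symbols are controls, red symbols mutants, the symbol shape gives the replicate number and bars are group means. For 13 genes every mutant lies above every control, and mutant 2 (red squares) is the lowest mutant in all 15.

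The remaining 9 folding genes gave differences from 0.01 to 0.46 and did not pass. Manf, a small ER protein that binds BiP and is also secreted, stood at 0.46 (SE 0.12, adjusted p = 0.0589), and it passed without mutant 2. Hsp90b1 (GRP94), the ER member of the HSP90 family, had values of 12.06, 11.94 and 12.24 in the mutants against 11.68, 11.52 and 11.80 in the controls, with no overlap. Its difference of 0.41 had a limma adjusted p of 0.078, and of 0.0465 with the block. The BiP co-chaperones Dnajb11 (0.31) and Dnajc3 (0.30) and the exchange factor Hyou1 (0.25) had adjusted p of 0.105, 0.124 and 0.174. The lectin chaperones of glycoproteins showed the smallest differences together with Creld2, an ER protein of less settled function. Calr stood at 0.24 (adjusted p = 0.206), Creld2 at 0.18 (0.493) and the membrane-bound Canx at 0.01 (95% confidence interval −0.23 to 0.25, adjusted p = 0.968), and the sign of Canx changed when arrays were centred on their medians (−0.041).

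The folding genes had a shared order among the mutants. Mutant 2 was the lowest of the mutants for 15 of 15 folding genes, and mutant 3 was the highest for 11. Among the controls the order was mixed, with control 2 lowest for 8 and control 3 highest for 8. Within the muscle-rich pair the median difference of the folding genes was 0.24, against 0.46 and 0.44 in pairs 1 and 3, and 15 of 15 differences lay above 0 in pair 1, 15 in pair 2 and 14 in pair 3. Canx in pair 3, at −0.12, was the exception.

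None of the 4 sensor-arm genes passed, beside 5.74% of all genes higher and 3.89% lower. At an unadjusted p under 0.05 only Ern1 was higher, beside 13.7% of all genes. Ern1 stood at 9.29, 9.0 and 9.17 in the mutants against 8.90, 8.85 and 8.83 in the controls, a difference of 0.29 (95% confidence interval 0.062 to 0.53, limma adjusted p = 0.126) with no overlap. Total Xbp1 stood at 12.19, 12.00 and 12.27 against 12.19, 11.84 and 11.66. Control 1 lay within the mutant values, and the difference of 0.26 had an interval of −0.10 to 0.61 (adjusted p = 0.389). Eif2ak3 stood at 0.25 (adjusted p = 0.284) and Atf6 at 0.026 (interval −0.21 to 0.26, adjusted p = 0.911), with Atf6 changing sign after repeated quantile normalization (−0.015) or median centring (−0.026).

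In the ATF4 arm 1 of 8 genes rose (12.5%, beside 5.74% of all genes) and none fell. At an unadjusted p under 0.05 in limma 2 were higher and 0 lower, beside 13.7% and 8.67% of all genes. Differences lay above 0 for 6 of 8, as for 45.9% of all genes. Atf4, whose protein is controlled mainly through translation, stood at 8.84, 8.61 and 8.79 in the mutants against 8.41, 8.66 and 8.42 in the controls, and control 2 lay above mutant 2. The difference was 0.25 (95% confidence interval −0.0068 to 0.51, limma adjusted p = 0.236). Ddit3, the transcription factor CHOP of prolonged stress, stood at 8.34, 8.34 and 8.20 against 8.18, 8.07 and 7.87. The groups met without overlapping, at 0.25 (interval −0.0020 to 0.50, adjusted p = 0.227).

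Vldlr, a lipoprotein receptor listed here as an ATF4 target, was the member of this arm that rose, from 10.14, 10.13 and 9.93 in the controls to 10.40, 10.53 and 10.56 in the mutants. Its difference was 0.43 (SE 0.10, limma adjusted p = 0.0354), and with any 1 mouse left out the adjusted p was between 0.053 and 0.153. Sesn2, a stress-induced regulator of nutrient signalling, stood at 0.33 (adjusted p = 0.158). Chac1, a glutathione-degrading enzyme that is one of the most sensitive ATF4 and CHOP targets, pointed the other way, at 7.95, 7.96 and 7.96 in the mutants against 8.25, 8.98 and 8.10 in the controls. The difference of −0.49 rested largely on control 2, was −0.22 without that mouse, and did not pass (adjusted p = 0.254). Ppp1r15a (GADD34), which restores translation, and Trib3, a pseudokinase that inhibits ATF4 and CHOP, stood at 0.074 and −0.085 (adjusted p = 0.799 and 0.637).

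Asns, asparagine synthetase, varied more between mice than between groups. It stood at 10.31, 10.67 and 9.94 in the mutants, against 10.90, 10.20 and 9.29 in the controls (difference 0.18, interval −0.76 to 1.12, limma adjusted p = 0.837). The mean of 12 adipocyte markers had the same order of mice within each group, at 10.13, 10.69 and 9.99 in the mutants against 11.97, 10.94 and 9.58 in the controls. With that score as a covariate the difference of Asns was 0.57 (adjusted p = 0.0219), while its adjusted p lay between 0.42 and 0.999 when single mice were left out, with a negative difference of −0.24 without control 3.

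None of the 7 ERAD genes passed, beside 5.74% of all genes higher and 3.89% lower. Beside 13.7% of all genes, 1 ERAD gene was higher at an unadjusted p under 0.05. This was Herpud1, a membrane scaffold of the ERAD ligase complex, at 11.69, 11.63 and 11.81 in the mutants against 11.27, 11.48 and 11.16 in the controls. The mutant values lay above all controls, and the difference was 0.41 (95% confidence interval 0.15 to 0.66, limma adjusted p = 0.065); it passed without control 2 (adjusted p = 0.0498). The others lay between −0.027 and 0.14 with adjusted p from 0.497 to 0.884. They were Edem1, a mannosidase-like factor that selects glycoproteins (0.14), Sel1l and Syvn1, the adaptor and the ubiquitin ligase of the complex (0.14 and 0.12), Selenos, a selenoprotein of the complex (0.085), and Derl3 and Derl1, membrane proteins of the exit channel (0.079 and −0.027).

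Of the 30 members with a RefSeq promoter window, 9 held an ERSE: Calr, Canx, Creld2, Derl3, Dnajc3, Hsp90b1, Hspa5, Pdia6 and Syvn1. This is 30.0%, beside 0.137% of 27025 genes. The element was first defined on promoters of this gene family, so the share is a description. The match of Hspa5 ended 47 bases before the start and that of Pdia6 80 bases before it, and Hsp90b1 held 2 matches, in opposite orientations, ending 194 and 89 bases before the start. The differences of the 9 genes ran from Canx at 0.01 and Derl3 at 0.08 to Pdia6 at 0.53 and Hspa5 at 0.54. Of the 6 folding genes that rose, Hspa5 and Pdia6 held an ERSE, and Pdia3, P4hb, Sdf2l1 and Dnajb9 had no match to these letters in this window.

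The related ERSE-II (ATTGGNCCACG) was in 2 member windows, Herpud1 and Dnajb11, beside 0.0444% of all genes. In Dnajb11 the match lay after the start. The UPRE core (TGACGTGG) was in 0 member windows and in 0.714% of all genes. CARE was in 5 windows (16.7%), those of Asns, Chac1, Herpud1, Trib3 and Vldlr, and in 4.51% of all genes. Vldlr rose, while Chac1 stood at −0.49 with the same letters, printed above, at 186 bases before its start against 193 for Vldlr. No match overlapped another motif in a member. With the bases before the start alone, ERSE was in the same 9 members, ERSE-II in 1 and CARE in 4.

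**Figure D3:**
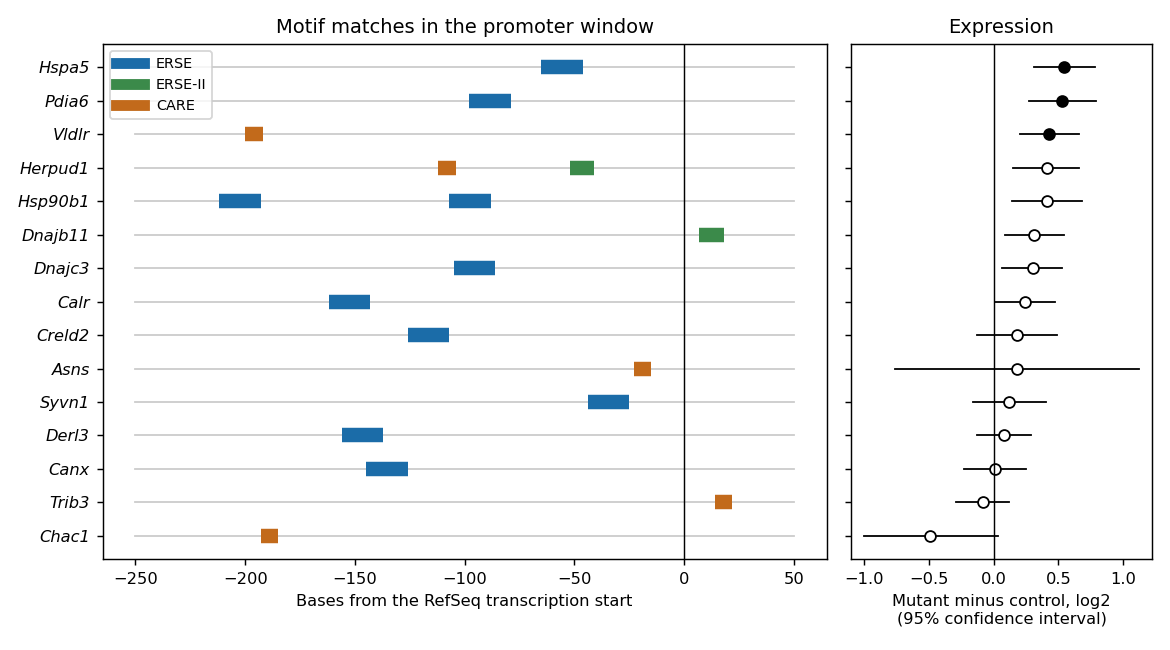
Positions of ERSE, ERSE-II and CARE matches from 250 bases before to 50 after the RefSeq start (left, in bases) for the 15 members with a match, ordered by their log2 difference (right, mutant minus control with 95% confidence interval, filled where the limma adjusted p was under 0.05). Genes with an ERSE run from Hspa5 at 0.54 to Canx at 0.01.

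The same question was put to 9 further lists of the secretory and stress pathways, with 191 measured genes counted once, of which 16 rose (8.38%, beside 5.74% of all genes) and 7 fell. Calls here also changed when single mice were left out. In these lists 3 rose and 2 fell without mutant 1, and 4 rose and 3 fell without mutant 3. The counts were 6 and 4 without control 2, 8 and 5 without control 3, and 11 and 5 without control 1. Without mutant 2, 33 rose and 4 fell. Of the 23 calls, 5 held with any single mouse left out (P4ha3, P3h4, Svip, Psat1 and Hsph1). With arrays centred on their medians 9 rose and 8 fell, with sex as a covariate 9 rose and 5 fell, and with array weights 54 rose and 13 fell. In these fits 4.48%, 4.46% and 11.9% of all genes were higher.

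Lists of folding and transport machinery had medians above that of all genes. Of 25 other ER folding factors 3 rose (12.0%, beside 5.74% of all genes) and none fell, with a median of 0.29. Differences lay above 0 for 24 of 25, as for 45.9% of all genes. At an unadjusted p under 0.05 in limma 17 were higher and 0 lower, beside 13.7% and 8.67% of all genes. The 3 that passed were Pdia5 (0.50, SE 0.11) and Txndc5 (0.49, SE 0.093), 2 further disulfide isomerases, and Calu (0.43), a calcium-binding ER protein. Of 24 genes of the translocon, signal peptidase and N-glycosylation 3 rose (12.5%, median 0.24), with 13 higher and 0 lower at an unadjusted p under 0.05. The 3 were the channel subunit Sec61a1 (0.46, limma adjusted p = 0.0479), the peptidase subunit Sec11a (0.48, 0.0381) and Ostc of the oligosaccharyl transferase (0.50, 0.0499). Of 25 genes of transport between ER and Golgi 2 rose (8.0%, near the 5.74% of all genes, median of the list 0.22). At an unadjusted p under 0.05, 12 of these were higher and 0 lower. The 2 that passed were the cargo receptor Lman1 (0.46) and the coat subunit Copb1 (0.43).

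Procollagen folding and export held the largest single rise. Of 17 measured genes 3 rose (17.6%, beside 5.74% of all genes) and none fell (median of the list 0.22). At an unadjusted p under 0.05 in limma 7 were higher and 2 lower. The 2 were P4ha1, another catalytic subunit of the prolyl 4-hydroxylase (−0.40, adjusted p = 0.174), and Tmem38b, an ER cation channel (−0.46, adjusted p = 0.218). P4ha3, a catalytic subunit of the collagen prolyl 4-hydroxylase whose other subunit is P4hb, stood at 9.89, 9.03 and 10.03 in the mutants against 7.55, 7.65 and 7.42 in the controls. It rose by 2.11 (SE 0.25, 4.32-fold, limma adjusted p = 0.00362), and mutant 2 was again the lowest mutant. P3h4 (0.83, SE 0.13) and P3h3 (0.78, SE 0.14), of the collagen prolyl 3-hydroxylase family, rose as well, P3h3 with adjusted p up to 0.0792 when single mice were left out.

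Among the further lists, those of ERAD factors, transducers, ATF4 targets and stress-linked apoptosis had medians from −0.031 to 0.093. The member arms of sensors, ATF4-CHOP genes and ERAD genes had medians of 0.25, 0.22 and 0.12, near or within the range of the machinery lists for the first and second. Differences between lists were not tested. Of 21 other ERAD factors 3 fell (14.3%, beside 3.89% of all genes) and none rose (median of the list −0.031). At an unadjusted p under 0.05, 2 were higher and 3 lower. The 3 that fell were Svip, a small inhibitor of ERAD (−1.33, SE 0.15), the ubiquitin ligase Rnf5 (−0.83) and the mannosidase Man1b1 (−0.73). Svip stood at 9.89, 9.69 and 9.99 in the mutants against 11.04, 11.05 and 11.47 in the controls (limma adjusted p = 0.00269). None of 18 other transducers and regulators passed (median 0.093, with 3 higher and 4 lower at an unadjusted p under 0.05), the smallest p being that of Tmbim6, an ER membrane protein that restrains IRE1 (−0.37, adjusted p = 0.0653). Of 37 further ATF4 and amino acid response targets 1 rose (2.7%) and 2 fell (5.41%), beside 5.74% and 3.89% of all genes (median of the list 0.023). Ddit4, an inhibitor of mTORC1, rose by 1.07 (SE 0.21), and Psat1, of serine synthesis (−0.90, SE 0.12), and the tryptophan tRNA synthetase gene Wars (−0.37) fell. With each mouse left out in turn, the calls of Svip and Psat1 held in 6 fits and that of Rnf5 in 5. The call of Ddit4 held in 2 such fits, and those of Man1b1 and Wars in 0.

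Of 9 genes of stress-linked apoptosis 1 rose (11.1%, beside 5.74% of all genes), Casp12, an ER-associated caspase (0.79, SE 0.13, median of the list 0.053). The cytosolic heat shock list went both ways, with 3 of 16 higher (18.8%) and 2 lower (12.5%), beside 5.74% and 3.89% of all genes (median of the list 0.16). Bag3 (0.90), Hsph1 (0.80) and Dnajb4 (0.50) rose, and Hspa4l (−0.94) and the small heat shock protein gene Cryab (−0.72) fell. Calls of Casp12 and Cryab were lost without mutant 1 or mutant 3 and held in 4 of the fits with 1 mouse left out. In such fits the call of Hsph1 held in 6, that of Dnajb4 in 5, that of Bag3 in 3 and that of Hspa4l in 2.

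With the replicate block 20 genes of these lists were called higher and 7 lower. The calls of Lman1 and Wars were lost (adjusted p = 0.0509 and 0.0706). Past the threshold with the block but not without it were Dnajc10 (0.47, limma adjusted p = 0.0456 with the block) and Uggt2 (0.68, 0.0221) of the other ER folding factors, which made 5 of 25. Fkbp14 (0.54, 0.0361) and Tmem38b (−0.46, 0.0387) of the procollagen list, Sec24d (0.48, 0.0341) of ER to Golgi transport and Creb3l2 (0.55, 0.0267) of the transducers also passed there.

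**Figure D4:**
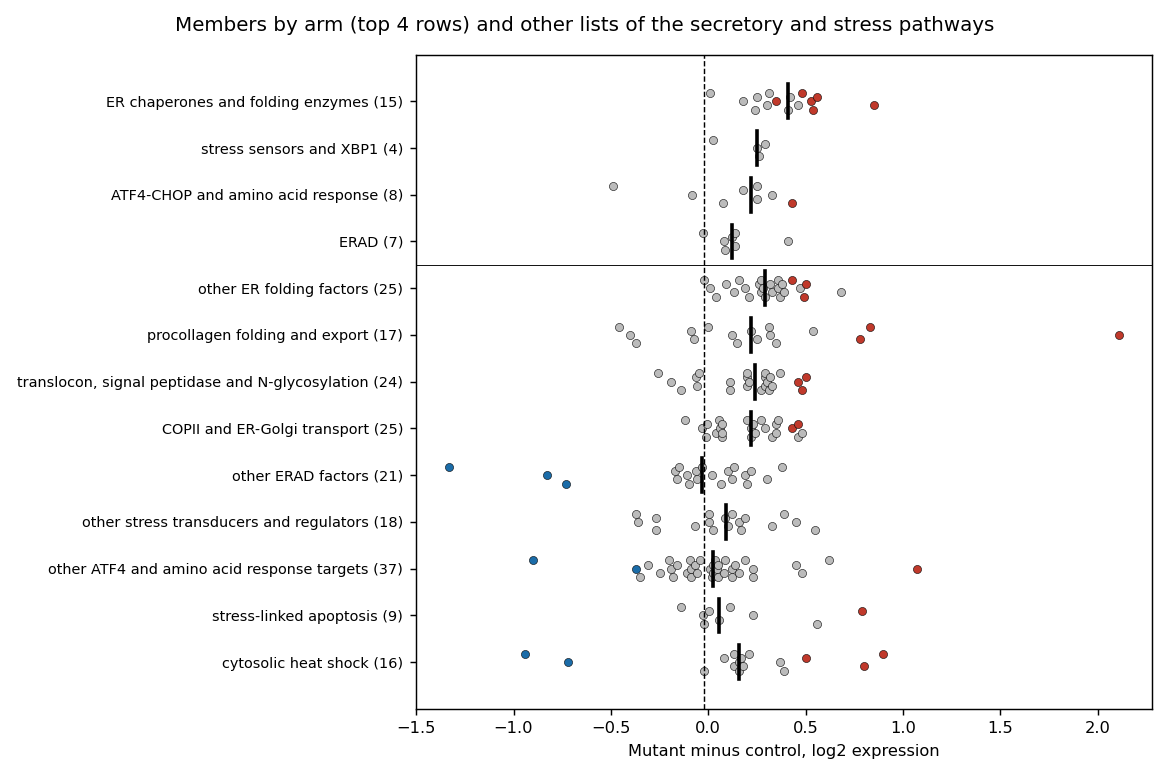
Log2 difference, mutant minus control, of each measured gene in the 4 member arms (top) and 9 other lists, with the number of measured genes in brackets; thick bars are list medians and the dashed line is the median of all genes (−0.02). Red and blue points passed as higher and lower (limma adjusted p under 0.05); the medians run from 0.41 for the chaperones to −0.031 for the other ERAD factors.

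Markers of other cells differed between the same nerves. Of 10 fibroblast markers 4 rose and none fell (median 0.29), and their summed linear level was 60916 to 70925 in the mutants and 48671 to 55750 in the controls. Of 8 perineurial markers 6 rose (median 0.92), with summed levels of 23381 to 26868 against 11620 to 15919. Of 7 Schwann cell markers measured here 4 fell (median −1.14), with summed levels of 18820 to 24496 against 36501 to 44630, and Sox10 stood at 10.04 to 10.56 in the mutants and 10.90 to 11.45 in the controls. None of 8 macrophage markers passed in limma (3 higher at an unadjusted p under 0.05, median 0.32, 4377 to 5695 against 3689 to 4623), and 1 of 8 endothelial markers fell, Cldn5 (median −0.076, 10193 to 10343 against 8622 to 11599). None of 7 markers of B and plasma cells, which express Derl3 and Creld2 strongly, passed (0 at an unadjusted p under 0.05, median −0.10, 712 to 758 against 740 to 857). None of 12 adipocyte markers (25171 to 36008 against 16198 to 62737) and none of 18 muscle markers (3888 to 129314 against 4210 to 143347) passed in limma, nor did any at an unadjusted p under 0.05 (0 of either list). No marker is at 0 on an array, and the lowest marker mean was that of Cd79a, at 4.72. The part of fibroblast, perineurial and Schwann cell content in the chaperone values was not tested.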

How the data were processed

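Total RNA of sciatic nerves was hybridised to 1-colour Affymetrix arrays, per the labels' protocols. The authors deposited 1 table of log2 values for 21225 gene-level probe sets. The log base was read from the values (3.55 to 14.52), while the sources used here do not name the background correction, normalization, summary method or genome build. The submitters' processing notes name limma. An array has no read depth, precision is limited by the number of arrays, and detection calls were not used. The platform annotation named 20239 probe sets by 1 symbol each, and 986 were unnamed and left out except in 1 alternative.

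The two-sided comparison of mutant with control used lmFit and eBayes of limma (version 3.58.1, R version 4.3.3) on all named genes, without a block, with Benjamini-Hochberg adjustment over all genes. The fit was tested on simulated data. An exact permutation test of 3 against 3 mice cannot go below p = 0.10 and was not used. Values are given for members that passed, and for Hspa5, Xbp1, Atf4 and Ddit3; in each other list up to 4 members that passed with the largest change are named, or else the one with the smallest p. Per-mouse values of further members, and Dnajb4, Cldn5, P4ha1, Tmem38b and the genes gained with the block by name, were added once the values were known. The members, lists and alternatives were chosen with earlier results of these data known.

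The labels give both groups replicate numbers 1 to 3 and call the mice biological replicates. Deviations from the group means correlated between same-numbered mice at 0.36, 0.574 and 0.295, and mutant 1 and control 3 at 0.303. The block fit is given where it changes a call. The muscle and adipocyte scores are mean log2 values of marker lists. The 19 alternatives were 2 filters on low values (25% and 50%), quantile normalization, median centring, 16 added to linear values, a trended robust prior, array weights, the block, all probe sets, each mouse left out, 3 covariates, and both muscle-rich mice left out. Promoters are RefSeq sequences of GRCm38.p6, and 30 of 34 members matched. Plots used matplotlib (3.10.9) under Python (3.11.15).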

Additional observations from a re-analysis of the deposited data

How the results depend on the processing

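Over all combinations of a member and an alternative, 553 kept the direction and the side of the threshold, 49 lost a call, 22 gained one and 19 changed sign. No member passed as lower under any of the 19 alternatives. The number of members that rose was 18 with array weights, beside 11.9% of all genes higher. It was 4 with the replicate block (5.95% of all genes) and 4 with the muscle score as a covariate (5.17%). With sex as a covariate it was 3 (4.46%), and without both muscle-rich mice 3 (4.3%). With single mice left out it was 0 to 8 (2.48% to 6.9%). The number of all genes called was 3655 with array weights and 896 to 2021 with single mice left out. Zeb2 ran from −0.97 to −0.74 with single mice left out. The signs that changed all belonged to members that did not pass. Canx stood at −0.041 with median centring, −0.044 with the adipocyte score, −0.022 with sex, −0.022 without both muscle-rich mice and −0.060 to 0.094 with single mice left out. Atf6 stood at −0.015 with repeated quantile normalization, −0.026 with median centring, −0.027 with the adipocyte score and −0.045 to 0.082 with single mice left out. Derl1 stood at 0.0061 with repeated quantile normalization, 0.0099 with the adipocyte score and −0.074 to 0.00088 with single mice left out. Ppp1r15a stood at −0.0056 with the adipocyte score and −0.034 to 0.18 with single mice left out, and Asns ran from −0.24 to 0.57. The causes were not tested. With 3 mice per group, each limma p-value sets a group difference against the spread between these mice, which the fit moderates using all genes.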

Other observations

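Outside the member list, 12 measured genes had an ERSE in the promoter window, and their median log2 difference was −0.011, with 6 of 12 above 0. Spats2l stood at 9.76, 9.66 and 9.88 in the mutants and at 8.96, 9.0 and 8.97 in the controls, a rise of 0.79 (SE 0.086, limma adjusted p = 0.00259) with no overlap between the groups. Calr4, a relative of Calr, fell from 7.03, 6.80 and 7.16 in the controls to 6.56, 6.42 and 6.48 in the mutants (−0.51, SE 0.11, limma adjusted p = 0.033). These genes were named after their values were seen.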
